A study of Drosophila melanogaster with 12 samples.

Results

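The *Drosophila melanogaster* genes described here are 9 of the 14001 genes measured, taken by symbol as markers of the fly's blood cells and as its prophenoloxidases: *PPO1*, *PPO2*, *PPO3*, *lz*, *Hml*, *NimC1*, *eater*, *crq* and *Pxn*. Their RNA was followed in a strain that is sensitive to avermectins, labelled wild type, and in a strain with resistance to these insecticides. Third-instar larvae and adults of each strain were sequenced, with 3 libraries per group. Every library came from total RNA of whole bodies, and the labels give neither sex, exact age nor how the resistant strain was obtained. They also do not say whether replicates were separate cultures, so a p-value here weighs only the spread among these libraries, which can be technical.

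Fly blood cells, the hemocytes, fall into 3 classes. Plasmatocytes are phagocytes and make up most of the cells, crystal cells store prophenoloxidase, and lamellocytes are flat cells that arise mainly after wasp attack and enclose large objects. Prophenoloxidase is the inactive form of phenoloxidase, the enzyme that oxidises phenols to quinones on the way to melanin, and a cascade of serine proteases cleaves it at wounds. PPO1 and PPO2 are the enzymes of crystal cells, while PPO3 is the enzyme of lamellocytes, and *lz* encodes the Runx factor that specifies crystal cells. *Hml* encodes hemolectin, a large protein of the clot, *Pxn* encodes peroxidasin, an enzyme of the extracellular matrix, *NimC1* and *eater* encode phagocytic receptors of the Nimrod family, and *crq* encodes croquemort, a CD36-like receptor for apoptotic cells.

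All 9 genes are protein coding. On the dm6 assembly, *PPO1* lies at 2R:17887220-17889973 on the minus strand, *PPO2* at 2R:9042261-9044709 on the minus strand and *PPO3* at 2R:23064769-23067183 on the plus strand. The crystal cell factor *lz* lies at X:9284649-9303636 on the plus strand. Of the plasmatocyte genes, *Hml* lies at 3L:13846054-13860001 on the plus strand, *NimC1* at 2L:13973158-13976769 on the minus strand and *eater* at 3R:27095867-27099679 on the minus strand. The gene *crq* at 2L:448254-453024 on the minus strand shares 448 exonic bases with *ex* on the other strand, and *Pxn* at 3L:2601455-2630064 on the minus strand shares 82 exonic bases with *CG16986* on the other strand and 151 with the non-coding gene *lncRNA:CR45660* on its own. *PPO1* overlaps *Elk* on the other strand with 0 shared exonic bases. The sources used here do not say whether counting used strand, so reads from such shared bases cannot be assigned to a gene.

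Values are FPKM, reads per gene divided by transcript length and library total. The steps between low values correspond to 11500000 to 12740000 reads per library, which is about 62 to 1945 reads for *PPO1*, 110 to 2637 for *PPO2*, 21 to 70 for *PPO3* and 16 to 319 for *eater*. The larval libraries of the resistant strain were not alike: on the first principal component within larvae, with 77.1% of the variance of the 1000 most variable genes, replicate 3 stood at 15.4 against 34.7 and 40.8, and the sensitive larvae stood from -36.8 to -24.8. The median gene was 0.49 higher in resistant larvae on the log2(FPKM + 1) scale, a shift that median-of-ratios scaling of the libraries brought to 0.02. In adults the median gene was 0.02 higher, and -0.11 after scaling. Both values are therefore given wherever scaling changed a call. In bulk RNA of whole bodies, fewer cells of a type and less RNA per cell cannot be told apart.

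Both crystal cell prophenoloxidases were lower in the resistant strain, in larvae and in adults. *PPO1* stood at 54.2, 54.8 and 71.3 FPKM in the 3 libraries of sensitive larvae and at 7.18, 8.60 and 15.3 FPKM in those of resistant larvae. In adults, *PPO1* stood at 17.4, 19.3 and 18.6 FPKM in the sensitive strain and at 2.36, 2.27 and 3.99 FPKM in the resistant strain. All resistant libraries lay below all sensitive ones of the same stage, with a wide gap, and the highest resistant adult was below the lowest resistant larva. *PPO2* gave the same picture at a somewhat higher level, with 81.1, 73.3 and 99.2 FPKM in sensitive larvae and 11.4, 10.1 and 17.1 FPKM in resistant larvae. In adults, *PPO2* stood at 23.7, 24.2 and 24.9 FPKM in the sensitive strain and at 4.81, 4.13 and 7.05 FPKM in the resistant strain. In resistant larvae and resistant adults alike, replicate 3 held the highest *PPO1* and *PPO2* of its group.

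Mean *PPO1* was 60.1 ± 9.71 FPKM in sensitive and 10.4 ± 4.32 in resistant larvae (SD, n = 3 each), a 5.81-fold difference, and mean *PPO2* was 84.5 ± 13.3 against 12.9 ± 3.73, a 6.57-fold difference. In limma fits across all genes, with Benjamini-Hochberg adjustment, *PPO1* fell by 2.48 on the log2(FPKM + 1) scale (SE 0.25, adjusted p = 0.000187) and *PPO2* fell by 2.65 (SE 0.21, adjusted p = 3.84e-05). The adult means of *PPO1* were 18.5 ± 0.96 and 2.87 ± 0.97 FPKM, a 6.42-fold difference, and those of *PPO2* were 24.3 ± 0.62 and 5.33 ± 1.53 FPKM, a 4.56-fold difference. *PPO1* fell by 2.35 in adults (SE 0.24, limma adjusted p = 0.000867) and *PPO2* fell by 2.03 (SE 0.24, limma adjusted p = 0.00168). Scaling made each of these falls larger, to -3.02 and -3.19 in larvae and to -2.46 and -2.15 in adults. Without replicate 3 of the resistant larvae, the library nearest to the sensitive side, the larval values were -2.77 for *PPO1* and -2.85 for *PPO2*, and no single library left out ended any of the 4 calls.

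**Figure D1:**
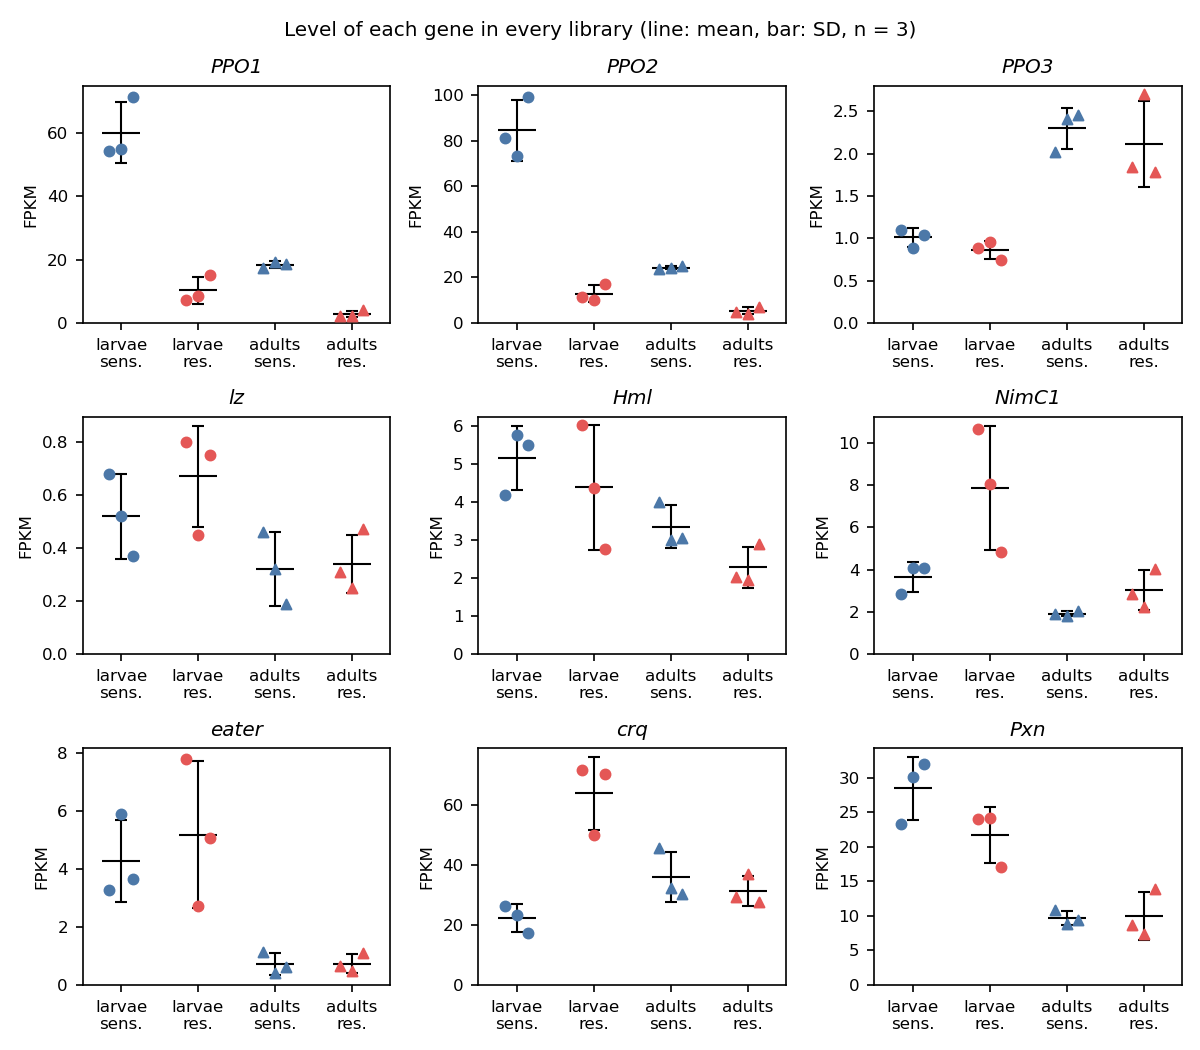
FPKM of each of the 9 genes, on linear axes that start at 0, in the 3 libraries of each group, with the mean as a line and the SD as a bar. *PPO1* and *PPO2* step down from sensitive to resistant in both stages, *crq* stands apart in resistant larvae with 49.98 to 71.7 FPKM, and *PPO3* and *lz* stay below 3 FPKM throughout.

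Set among all genes, these falls were at the extreme end. *PPO2* had the 95th lowest and *PPO1* the 109th lowest log2 fold change of the 11055 genes tested in larvae, and *PPO1* ranked 33 and *PPO2* 56 from the lowest of the 11612 tested in adults. Of 10473 genes tested in both stages, 94 (0.898%) were called lower in the resistant strain in both, and *PPO1* and *PPO2* were among them. With a log2 fold change of -2 or less in each stage, 10 genes (0.0955%) were left, again with both prophenoloxidases. Adult *PPO2*, at -2.03, lay close to that cut. Without replicate 2 or 1 of the resistant adults it was -1.89 or -1.98 and would not have met it. The cut was not part of the planned tests, so this count only describes the values. After scaling, 144 genes (1.37%) were called lower in both stages, and both remained among them. The larval and the adult comparison share no library.

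The lamellocyte enzyme gene stayed low and was not called between strains. *PPO3* stood at 1.10, 0.89 and 1.04 FPKM in sensitive larvae and at 0.89, 0.96 and 0.74 FPKM in resistant larvae. In adults it stood at 2.02, 2.41 and 2.46 FPKM in the sensitive and at 1.84, 2.70 and 1.78 FPKM in the resistant strain. The strains overlapped in both stages, and the adults lay above the larvae in every library. In adults the strain difference was -0.10 (SE 0.20, limma adjusted p = 0.866). Larval *PPO3* was under the filter of at least 3 libraries at 1 FPKM or more and has no test in the filtered fit, while the fit of all genes above 0 gave -0.11 (limma adjusted p = 0.498). Because 1 is added to each value, a change of so low a gene is compressed on this scale.

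The crystal cell factor *lz* was near the limit of measurement in whole bodies. It stood at 0.68, 0.52 and 0.37 FPKM in sensitive larvae and at 0.80, 0.45 and 0.75 FPKM in resistant larvae. In adults it stood at 0.46, 0.32 and 0.19 FPKM in the sensitive and at 0.31, 0.25 and 0.47 FPKM in the resistant strain. The strains overlapped in both stages, and *lz* passed the filter in no fit. Without the filter, the strain difference of *lz* was 0.13 in larvae (limma adjusted p = 0.437) and 0.02 in adults (limma adjusted p = 0.951), on a scale that compresses any change of values all under 1 FPKM. At this level a p above the threshold does not show that *lz* was alike in the strains.

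Among the 5 plasmatocyte genes, *crq* showed the largest strain difference in larvae without rescaling, and after median-of-ratios scaling it was as large as that of *Pxn*, at 0.92 and -0.92. It stood at 26.3, 23.4 and 17.4 FPKM in sensitive larvae and at 71.7, 49.98 and 70.3 FPKM in resistant larvae, with a wide gap between the strains. In adults it stood at 45.7, 32.2 and 30.5 FPKM in the sensitive and at 29.3, 36.9 and 27.7 FPKM in the resistant strain, and the strains overlapped. In larvae *crq* rose 2.86-fold, or by 1.48 on the log2(FPKM + 1) scale (SE 0.21, limma adjusted p = 0.000647), and by 0.92 after scaling (adjusted p = 0.00391). It had the 220th highest fold change of the 11055 genes tested. In adults the difference was -0.19 (SE 0.24, limma adjusted p = 0.746). The test of the difference between stages, adult minus larval strain effect, gave -1.67 (SE 0.32, limma adjusted p = 0.00245) and -1.23 after scaling (adjusted p = 0.00644). The gene *ex*, which overlaps *crq* on the other strand, was 2.97 ± 0.86 FPKM in sensitive and 9.23 ± 3.92 FPKM in resistant larvae and 2.17 ± 1.28 and 1.80 ± 0.53 FPKM in sensitive and resistant adults. Its larval rise of 1.33 was called as well (limma adjusted p = 0.00293), and what part shared reads have in either value was not tested.

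*NimC1* was higher in resistant larvae, with a call that rested on the scale. It stood at 2.85, 4.07 and 4.06 FPKM in sensitive larvae and at 10.7, 8.05 and 4.82 FPKM in resistant larvae, and at 1.91, 1.80 and 2.02 FPKM in sensitive adults against 2.83, 2.22 and 4.05 FPKM in resistant adults. The strains did not overlap in either stage, although replicate 3 of the resistant larvae lay close to the sensitive libraries. In larvae *NimC1* rose 2.14-fold, or by 0.88 (SE 0.25, limma adjusted p = 0.0133), but after median-of-ratios scaling the difference was 0.40 and not called (adjusted p = 0.221), and after upper-quartile scaling 0.57 (adjusted p = 0.0962). In adults the difference was 0.45 (SE 0.21, limma adjusted p = 0.207).

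*Hml*, the gene most used to mark plasmatocytes, did not pass the test between strains. It stood at 4.19, 5.77 and 5.51 FPKM in sensitive larvae and at 6.03, 4.37 and 2.76 FPKM in resistant larvae, and the strains overlapped. In adults it stood at 4.01, 3 and 3.05 FPKM in the sensitive and at 2.02, 1.94 and 2.89 FPKM in the resistant strain, which did not overlap. The difference was -0.23 in larvae (SE 0.24, limma adjusted p = 0.415) and -0.41 in adults (SE 0.21, limma adjusted p = 0.239), and in larvae it was called as -0.70 after median-of-ratios scaling (adjusted p = 0.0311) but not after upper-quartile scaling, at -0.53 (adjusted p = 0.0940).

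*Pxn* stood at 23.3, 30.1 and 31.9 FPKM in sensitive larvae and at 24, 24.2 and 17.1 FPKM in resistant larvae. In adults it stood at 10.8, 8.87 and 9.41 FPKM in the sensitive and at 8.69, 7.35 and 13.9 FPKM in the resistant strain. The strains overlapped in both stages, in larvae only by the lowest sensitive library. The larval difference of -0.38 was not called (SE 0.19, limma adjusted p = 0.112), but it was called after both scalings, at -0.92 (adjusted p = 0.00414) with median-of-ratios and at -0.73 (adjusted p = 0.0155) with upper-quartile scaling. The adult difference was -0.002 (SE 0.26, limma adjusted p = 0.998).

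*eater* had the largest SD relative to its mean of the 9 genes in each group. It stood at 3.27, 5.89 and 3.64 FPKM in sensitive larvae and at 7.79, 2.71 and 5.05 FPKM in resistant larvae. In adults it stood at 1.15, 0.40 and 0.61 FPKM in the sensitive and at 0.67, 0.47 and 1.09 FPKM in the resistant strain. The strains overlapped in both stages. The larval difference was 0.18 (SE 0.32, limma adjusted p = 0.644), and it turned to -0.29 after scaling (adjusted p = 0.462). Adult *eater* did not pass the filter, and without the filter its difference was 0.03 (limma adjusted p = 0.968).

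In larvae 7 of the 9 genes entered the test, each at 1 FPKM or more in all 6 libraries, and 4 were called, 2 lower and 2 higher. Over all genes 58.7% were called in larvae, 9.84% lower and 48.8% higher. After scaling 5 of the 7 were called, 4 lower and 1 higher, against 30.2% of all genes, with 19.2% lower and 11.0% higher. In adults 7 of the 9 genes entered the test and 2 were called, both lower, against 19.9% of all genes called and 3.95% called lower, or 15.1% and 4.41% after scaling, when the same 2 were called. A share of 4 in 7 in larvae was thus close to the background, and in adults the 2 genes called were *PPO1* and *PPO2*. Groups did not overlap for 4 of the 9 genes in larvae, where this held for 65.3% of all tested genes, and for 4 in adults, where it held for 32.1%, with the resistant strain lower for 8.48%. A gene with a call in 1 stage only is not thereby shown to differ between stages: of 8 genes in the test of that difference, *crq* alone was called, with a lower effect in adults, against 29.7% of all genes called, 19.7% lower and 9.98% higher. After scaling *PPO2* was called higher beside *crq*, against 23.5% of all genes, 15.7% higher and 7.82% lower.

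**Figure D2:**
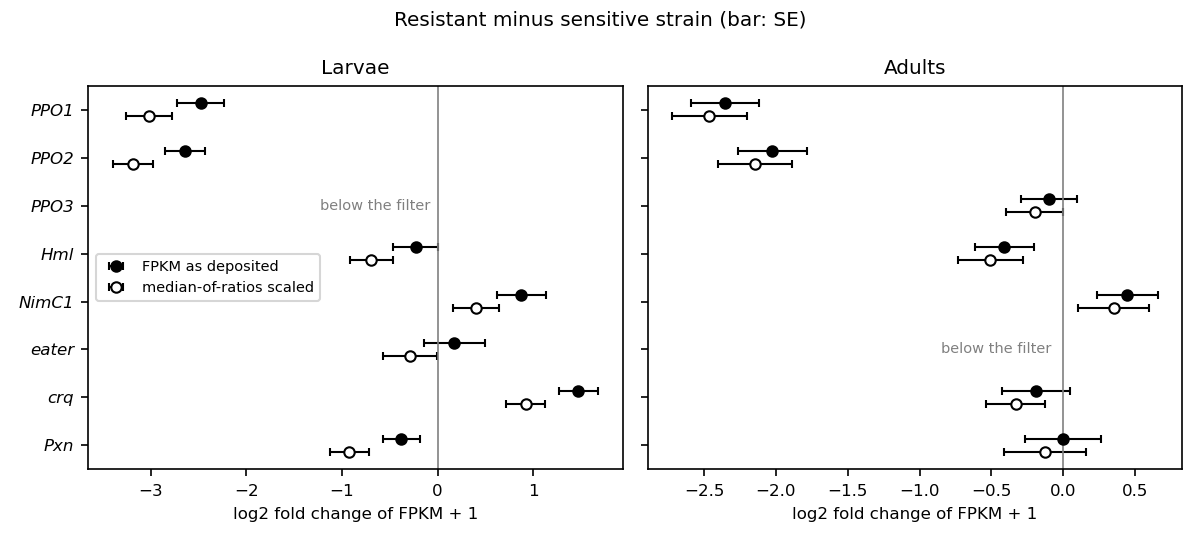
Difference between strains on the log2(FPKM + 1) scale, resistant minus sensitive, for the genes tested in larvae and in adults. Points are limma estimates, bars are 1 SE, and the marker shows whether the libraries were rescaled: *PPO1* and *PPO2* lie at -2 or lower in both stages, and *crq* lies at 1.48 in larvae and -0.19 in adults.

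The larval and adult falls of the prophenoloxidases could be compared directly. For *PPO1* the adult effect minus the larval effect was 0.13 (SE 0.36, limma adjusted p = 0.802). For *PPO2* it was 0.62 (SE 0.32, limma adjusted p = 0.141), a smaller fall in adults that was called only after rescaling, at 1.11 (adjusted p = 0.0324) with median-of-ratios and at 1.03 (adjusted p = 0.0401) with upper-quartile scaling. The remaining differences between stages were 0.37 for *Pxn*, -0.43 for *NimC1*, -0.18 for *Hml*, 0.01 for *PPO3* and -0.15 for *eater*, none of them called by limma.

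Ratios of genes within a library do not depend on how that library is scaled. The sum of *PPO1* and *PPO2* divided by the sum of the 5 plasmatocyte genes was 2.26, 1.85 and 2.72 in the libraries of sensitive larvae and 0.154, 0.210 and 0.324 in those of resistant larvae. In adults it was 0.647, 0.941 and 0.954 in the sensitive and 0.165, 0.131 and 0.223 in the resistant strain. With all 5 plasmatocyte genes in the sum, the ratio was above 1 in the sensitive larvae and below 1 in the 9 other libraries. Since *crq* rose in resistant larvae, the ratio without it was computed too, a choice made after its values were seen: it was 3.53 ± 0.649 and 0.650 ± 0.383 in sensitive and resistant larvae and 2.76 ± 0.411 and 0.514 ± 0.017 in sensitive and resistant adults. Without *crq* it was above 1 in the sensitive adults too, at 2.30, 3.10 and 2.88, and in replicate 3 of the resistant larvae, at 1.09. The strains remained apart in both stages. As a score over chosen genes these ratios carry no test.

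Other ratios, also looked at after the values were known, moved with strain. *NimC1* relative to *Hml* ranged from 0.680 to 0.737 in sensitive larvae and from 1.75 to 1.84 in resistant larvae, and from 0.476 to 0.662 and from 1.14 to 1.40 in sensitive and resistant adults. Replicate 3 of the resistant larvae, whose *NimC1* was low, lay with its group by this ratio. *PPO1* relative to *PPO2* ranged from 0.668 to 0.747 in sensitive and from 0.631 to 0.892 in resistant larvae, where the strains overlapped. In adults it ranged from 0.735 to 0.797 in the sensitive and from 0.491 to 0.566 in the resistant strain, without overlap. *crq* relative to *Pxn* was 0.817 ± 0.293 in sensitive larvae and 3.06 ± 1.02 in resistant larvae, near the 3.70 ± 0.5 of sensitive adults and the 3.46 ± 1.52 of resistant adults.

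**Figure D3:**
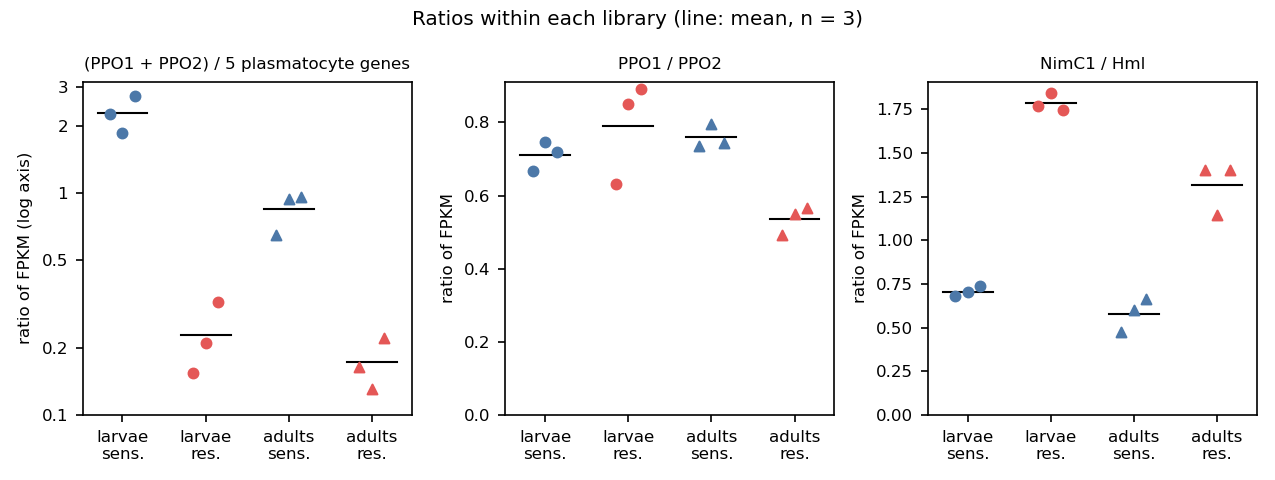
Ratios of FPKM within each library, with the group mean as a line: *PPO1* plus *PPO2* over the 5 plasmatocyte genes on a log axis, and *PPO1* over *PPO2* and *NimC1* over *Hml* on linear axes that start at 0. The first ratio is 1.85 to 2.72 in sensitive larvae and below 1 in the 9 libraries of the other groups.

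The order of the 9 genes changed with strain and stage. In sensitive larvae *PPO2* stood highest, then *PPO1*, then *Pxn* and *crq*, whose ranges overlapped, then *Hml*, *eater* and *NimC1*, which overlapped with their neighbours, then *PPO3* and *lz*. In resistant larvae *crq* stood alone at the top, and *Pxn*, *PPO2*, *PPO1*, *NimC1*, *eater* and *Hml* formed a run in which each overlapped with the next. In sensitive adults the order was *crq*, *PPO2*, *PPO1*, *Pxn* and *Hml*, each clear of the next, followed by *PPO3* and *NimC1*, which overlapped. In resistant adults *crq* stood first, then *Pxn* and then *PPO2*, with *NimC1*, *PPO1*, *Hml* and *PPO3* overlapping behind them.

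Between stages, most of the blood cell genes were lower in adults than in larvae of the same strain. These comparisons use the same libraries as those between strains and each adds no separate evidence on strain. In the sensitive strain *PPO1* fell by 1.64 (SE 0.15, limma adjusted p = 2.41e-05) and *PPO2* fell by 1.75 (SE 0.15, limma adjusted p = 1.54e-05). In the resistant strain *PPO1* fell by 1.51 (SE 0.30, limma adjusted p = 0.00135) and *PPO2* fell by 1.13 (SE 0.27, limma adjusted p = 0.00487). Larval and adult libraries of a strain did not overlap for either gene. In either direction this held for 8 of the 9 genes in the sensitive strain and 7 in the resistant strain. Over all tested genes it held for 73.6% and 58.7%, with adults lower for 14.2% and 20.5%. Among the genes without overlap, *PPO3* was higher in adults of both strains and *crq* in adults of the sensitive strain. *PPO3* and *eater* entered these counts through the stage in which they were higher.

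*Pxn* fell by 1.45 in the sensitive strain (limma adjusted p = 7.41e-05) and by 1.08 in the resistant strain (adjusted p = 0.00639), with no overlap between stages. *NimC1* fell by 0.67 (limma adjusted p = 0.00851) and by 1.10 (adjusted p = 0.00823). *Hml* fell by 0.50 (limma adjusted p = 0.0396) and by 0.68 (adjusted p = 0.0478), and each of these calls was lost when any of 4 of its 6 libraries was left out, at adjusted p from 0.113 to 0.130 in the sensitive strain and from 0.0941 to 0.180 in the resistant strain. The 4 libraries were replicates 2 and 3 of both stages in the sensitive strain and replicates 1 and 2 of both stages in the resistant strain. The *Hml* call was also lost in 1 fit of all 12 libraries in the sensitive strain (limma adjusted p = 0.0737), and with no filter (adjusted p = 0.0584) or a pseudocount of 0.1 (adjusted p = 0.0550) in the resistant strain.

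*crq* was the gene whose stage difference turned with strain. It was 0.67 higher in adults of the sensitive strain (SE 0.21, limma adjusted p = 0.0194), a call that was lost after scaling, at 0.005 (adjusted p = 0.986), and without replicate 3 of the sensitive larvae, at 0.50 (adjusted p = 0.0753). In the resistant strain *crq* fell by 1.001 from larvae to adults (SE 0.23, limma adjusted p = 0.00382). The test of this difference is the one between stages given above, since it is the same contrast of the 4 groups.

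Counted over the 6 genes at 1 FPKM or more in every library, 5 were lower and 1 higher in adults of the sensitive strain, and 6 of 6 were lower in adults of the resistant strain. Over all genes, 68.9% were called between stages in the sensitive strain and 13.2% lower, and 52.1% were called in the resistant strain and 17.4% lower. After scaling, 5 of the 6 were called lower in the sensitive strain and 6 of 6 in the resistant strain, where 54.9% of all genes were called in the sensitive strain, 26.0% lower and 29.0% higher, and 53.2% in the resistant strain, 25.0% lower and 28.3% higher. *eater* and *PPO3* are not in these counts. *eater* fell under 1 FPKM in most adult libraries, and larval *PPO3* lay at about 1 FPKM, so that these genes entered the test through the stage in which they were higher. *eater* was -1.61 in the sensitive and -1.76 in the resistant strain, adult minus larva. *PPO3* was 0.71 and 0.73 higher in adults, which fell to 0.30 after scaling in the sensitive strain and was then not called (limma adjusted p = 0.119).

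**Figure D4:**
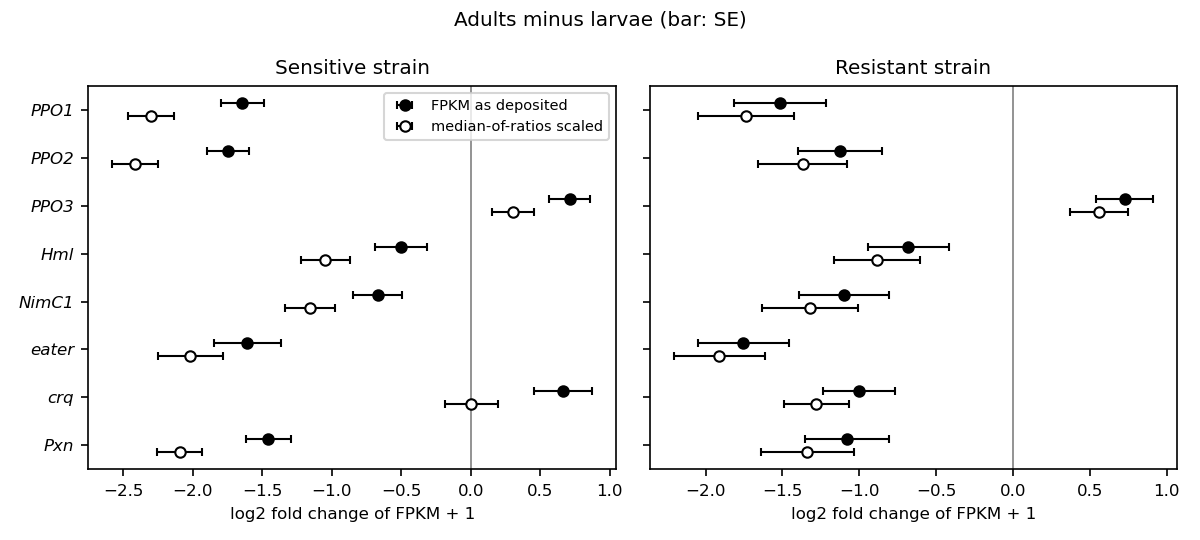
Difference between stages on the log2(FPKM + 1) scale, adult minus larva, for the 8 genes tested within each strain. Points are limma estimates with and without rescaling of the libraries and bars are 1 SE: *PPO1*, *PPO2*, *Pxn*, *NimC1*, *Hml* and *eater* lie below 0 in both strains, and *crq* is 0.67 in the sensitive and -1.001 in the resistant strain without rescaling.

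Genes of the same cell types and pathways were taken from lists chosen with earlier results of these data known, and some genes stand in more than 1 list. The lists include the 9 genes themselves, so their counts and medians partly repeat the results given above. Over all genes, 48.8% were called higher and 9.84% lower in larvae, and 15.9% and 3.95% in adults. After scaling these shares were 11.0% and 19.2% in larvae and 10.6% and 4.41% in adults. Of the 11 crystal cell genes, 10 were tested in larvae, with 5 lower, 4 higher and 1 not called, and a median of -0.48 where all genes had 0.49. After scaling 6 were lower, 0 higher and 4 not called. *PPO1* and *PPO2* are among the lower genes of both counts. *CG9119* fell with the prophenoloxidases in larvae, from 73.1 to 15.6 FPKM, or by 2.17 (limma adjusted p = 5.77e-05), while in adults it stood at 98.3 FPKM in the sensitive and 187 FPKM in the resistant strain. That adult rise of 0.93 (limma adjusted p = 0.0168) was not called after scaling (adjusted p = 0.0632), nor without replicate 3 of the sensitive adults (adjusted p = 0.0839) or replicate 1 of the resistant adults (adjusted p = 0.0724). *fok*, *klu* and *peb*, the last a zinc finger factor, were higher in larvae at 1.24, 0.92 and 0.83 (limma adjusted p = 0.00525, 0.00694 and 0.00753), but none of these calls held after scaling. In adults 9 crystal cell genes were tested, with 2 lower, 3 higher and 4 not called, and the lower ones were *PPO1* and *PPO2*. The higher ones were *CG9119*, *CG7860* and *fok*, and after scaling only *CG7860* remained called, at 0.86 (limma adjusted p = 0.0373). Its rise of 1.003 without scaling (limma adjusted p = 0.0155) was lost without replicate 1 of the resistant adults (adjusted p = 0.0911). The rise of *fok*, 0.96 (limma adjusted p = 0.0378), was lost without replicate 2 or 3 of the sensitive adults or replicate 1 or 2 of the resistant adults (adjusted p from 0.0709 to 0.169).

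Of the 6 lamellocyte genes, 4 were tested in larvae, where 3 were higher and 1 lower, with a median of 0.9 against 0.49 for all genes. After scaling 1 was higher, 1 lower and 2 not called. Whether these whole-body values come from lamellocytes was not tested. The gene *atilla*, for a GPI-anchored protein by which lamellocytes are recognised, fell from 87.9 to 41.0 FPKM, or by 1.10 (limma adjusted p = 0.00129). In adults *atilla* stood at 128 FPKM in the sensitive and 120 FPKM in the resistant strain. *mys*, for an integrin beta chain, rose by 1.31 (limma adjusted p = 0.000916), and by 0.76 after scaling (adjusted p = 0.0102), while the rises of *msn* and *cher* were not called after scaling. In adults 5 were tested and 0 called by limma, *PPO3* among them.

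Of the 18 plasmatocyte genes, 17 were tested in larvae, with 6 higher, 4 lower and 7 not called, and a median of -0.05 against 0.49 for all genes. After scaling the split was 2 higher, 7 lower and 8 not called. *drpr*, for the engulfment receptor Draper, rose with *crq*, from 9.84 to 27.7 FPKM, or by 1.40 (limma adjusted p = 0.000603), and by 0.87 after scaling (adjusted p = 0.00417). *He*, for the hemocyte surface protein Hemese, fell from 32.2 to 12.4 FPKM, or by 1.33 (limma adjusted p = 0.00606). The type IV collagen genes *vkg* and *Col4a1* fell by 1.07 and 0.76 (limma adjusted p = 0.00179 and 0.00575). *Nplp2*, singled out after its values were seen, stood at 2831 ± 997 FPKM in sensitive and 229 ± 371 FPKM in resistant larvae, a difference of -5.64 that was not called (limma adjusted p = 0.0528), and the resistant libraries ranged from 11.3 to 658 FPKM. In adults 15 were tested, with 1 higher and 1 lower. The scavenger receptor gene *Sr-CI* fell from 6.66 to 2.38 FPKM, or by 1.18 (limma adjusted p = 0.0160), a call lost without replicate 1 of the resistant adults (adjusted p = 0.0779). *Sr-CIV* rose by 0.87 (limma adjusted p = 0.0282), a call lost without replicate 1 or 3 of the sensitive adults (adjusted p = 0.0866 and 0.0577). It stood at 0.18, 0.85 and 0.67 FPKM in sensitive adults and at 2.01, 2.41 and 1.19 FPKM in resistant adults. *Sr-CIV* thus entered the test only through the strain in which it was higher.

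Of the 19 genes of hemocyte transcription and signalling, 12 were tested in larvae, with 9 higher, 0 lower and 3 not called by limma, and a median of 0.76 against 0.49 for all genes. After scaling 2 were higher and 10 not called. The Ets factor gene *pnt* rose by 1.07 and the Notch receptor gene *N* by 1.05, and both remained called after scaling, at 0.60 and 0.63 (limma adjusted p = 0.0457 and 0.0360), while the rise of the growth factor receptor gene *Pvr*, 1.002, was not called after scaling (adjusted p = 0.0713). In adults 10 were tested and 0 called by limma.

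Of the 16 genes of the melanization cascade and its inhibitors, 15 were tested in larvae, with 4 higher, 4 lower and 7 not called, and a median of 0.32 against 0.49. After scaling 0 were higher, 7 lower and 8 not called. In adults 16 were tested and 3 were lower, namely *PPO1*, *PPO2* and *MP1*, a serine protease gene, whose fall of 0.68 (limma adjusted p = 0.0471) was lost without replicate 2 or 3 of the sensitive adults or replicate 1 or 2 of the resistant adults (adjusted p from 0.120 to 0.221) and with upper-quartile scaling (adjusted p = 0.0680). *yellow-f2*, for a dopachrome-converting enzyme, fell by 1.70 in larvae (limma adjusted p = 0.0136), a call lost without replicate 1 or 2 of the resistant larvae (adjusted p = 0.0591 and 0.0507). *Hayan* and *Sp7*, for proteases that act just ahead of prophenoloxidase, were not called in either stage.

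The list of melanin and tyrosine enzymes holds 10 genes, not all of which act in making melanin. In larvae 9 were tested, with 3 higher, 0 lower and 6 not called by limma, and a median of 1.13 against 0.49 for all genes. In adults 10 were tested, with 3 higher, 1 lower and 6 not called, and a median of 0.69 against 0.02. After scaling 2 were higher and 2 lower in larvae, and 2 higher and 1 lower in adults. In adults *ple*, for tyrosine hydroxylase, rose from 6.50 to 68.3 FPKM, or by 3.19 (limma adjusted p = 0.00334), and *e*, for the enzyme that joins beta-alanine to dopamine, rose from 9.70 to 65.1 FPKM, or by 2.61 (limma adjusted p = 0.00113). In larvae *b* rose by 1.74 and *Ddc*, for dopa decarboxylase, by 1.48 (limma adjusted p = 0.0055 and 0.001), and both remained called after scaling. The lower gene in adults was *Hn*, for phenylalanine hydroxylase, whose fall of 0.96 (limma adjusted p = 0.0403) was lost without any 1 of the 3 sensitive adults or replicate 1 or 2 of the resistant adults (adjusted p from 0.0897 to 0.165).

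Of the 28 genes of phagocytosis and clotting, 26 were tested in larvae, with 9 higher, 7 lower and 10 not called, and a median of 0.04 against 0.49. After scaling the split was 3 higher, 11 lower and 12 not called. *fon*, for the clot protein Fondue, fell from 807 to 164 FPKM, or by 2.27 (limma adjusted p = 0.000114), *apolpp*, the fat body lipoprotein gene, fell by 1.85 and *NimB2*, of the Nimrod family, fell by 1.07. In adults 25 were tested, with 2 higher, 2 lower and 21 not called, and after scaling 1 was higher and 4 lower. *NimC4*, a Nimrod receptor gene, rose by 1.17 (limma adjusted p = 0.0125), a call lost without replicate 2 of the sensitive adults (adjusted p = 0.0557) or replicate 1 of the resistant adults (adjusted p = 0.0616). The other higher gene, *NimC3*, rose by 0.60 (limma adjusted p = 0.0345), which was not called after scaling (adjusted p = 0.0977). *NimC3* was under 1 FPKM in all sensitive adults and entered the test only through the resistant adults. *PGRP-SA*, for a recognition protein of bacterial peptidoglycan, fell by 0.93 (limma adjusted p = 0.0255), a call lost without replicate 2 or 3 of the sensitive adults or replicate 1 of the resistant adults (adjusted p from 0.0794 to 0.119).

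**Figure D5:**
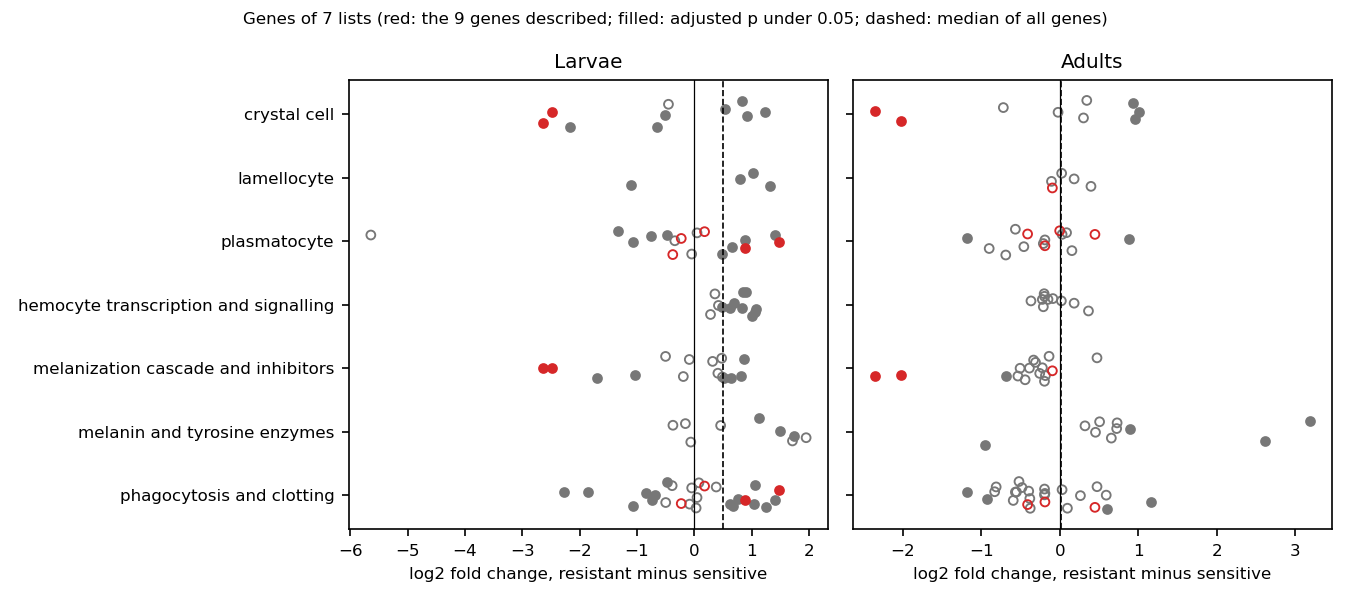
Log2 fold change between strains, resistant minus sensitive, of each tested gene of the 7 lists in larvae and in adults, without rescaling, with the 9 genes described here in red, filled points at an adjusted p under 0.05 and a dashed line at the median of all genes. *PPO1* and *PPO2* are the lowest crystal cell points in both stages, and *ple* and *e* are the highest points among adults.

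Markers of other tissues moved between strains too. Of 7 fat body markers, 5 were lower in resistant larvae and 5 higher in resistant adults, with and without scaling. Their summed level was 34194 to 47824 FPKM in sensitive and 24367 to 34750 FPKM in resistant larvae. In adults it was only 104 to 122 FPKM in the sensitive and 264 to 407 FPKM in the resistant strain. The adult fat body calls thus rest on levels far below those of larvae. Of 7 muscle markers, 5 were lower in larvae and 6 higher in adults, and after scaling 6 were lower and 2 higher. Of 6 testis markers, 5 were higher in each stage, but after scaling 0 were called by limma in larvae and 4 in adults, where their summed level ranged from 172 to 256 FPKM in the sensitive and from 482 to 555 FPKM in the resistant strain. Of 5 gut markers, 4 were lower in adults, 2 of them after scaling, and in larvae 2 were higher and 1 lower. Ovary markers were lower for 1 of 6 in adults, and in larvae their sums stayed at 4.3 FPKM or less, with *Yp1* listed at 0 in the resistant strain. Of 6 epidermis markers, 1 was higher and 2 lower in larvae, 3 lower after scaling, and 1 was higher in adults. *PPO1* and *PPO2* were lower in both stages. The fat body and muscle markers that were called were lower in larvae and higher in adults, for fat body at low adult levels. The part that tissue makeup has in the values of the 9 genes was not tested.

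The genes whose levels varied most like those of each gene were found by Pearson r of log2(FPKM + 1) over the 12 libraries after the mean of each stage was taken away. Libraries of a group share strain and stage, so these are descriptions only. *PPO1* and *PPO2* had an r of 0.991 with each other. The 3 other genes nearest to *PPO1* were *Miox* at 0.983, *CG33307* at 0.978 and *mdy* at 0.977, and those nearest to *PPO2* were *Gnmt* at 0.981, *CG33307* at 0.979 and *CG13323* at 0.974. *Gnmt* stood at 226 ± 42.0 and 12.4 ± 11.2 FPKM in sensitive and resistant larvae and at 150 ± 46.9 and 22.8 ± 16.3 FPKM in sensitive and resistant adults. *CG33307*, near both, stood at 251 ± 47.1 and 49.8 ± 13.1 FPKM in larvae and at 45.9 ± 12.6 and 10.4 ± 4.23 FPKM in adults.

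For *crq* the nearest genes were *CG2201* at 0.988, *Syx7* at 0.987 and *sigmar* at 0.985. *Syx7* stood at 35.2 ± 5.87 and 87.3 ± 7.41 FPKM in sensitive and resistant larvae and at 42.8 ± 8.89 and 39.1 ± 2.80 FPKM in adults. For *NimC1* they were *yellow-b* at 0.947, *zye* at 0.939 and *yellow-e* at 0.935. *Hml* had *ATPCL* at 0.913, *nec* at 0.891 and *Idgf4* at 0.890 nearest, and its r with *Pxn* was 0.728. That was the highest r of any pair among *Hml*, *NimC1*, *eater*, *crq* and *Pxn*. The other pairs of these genes ranged from -0.591 for *crq* and *Pxn* to 0.52 for *NimC1* and *crq*. *Pxn* itself had *PCB* at 0.904, *CG9485* at 0.900 and *fat-spondin* at 0.899. Of the low genes, the nearest to *PPO3* was *Coprox* at 0.924, followed by *ea* at 0.871 and *rtet* at 0.865, while *eater* had *PRL-1* at 0.929, *foxo* at 0.922 and *Mnt* at 0.921.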

How the data were processed

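Per the labels' protocols, TRIzol was used for extraction and a BGISEQ-500 for sequencing. STAR, RSEM 1.3.3, FastQC 0.11.9 and edgeR 3.12 stand in the submitters' processing notes with the dm6 build, without settings. The authors deposited 1 table of FPKM values for 14001 genes in 12 libraries. The sources used here do not say how reads of overlapping genes were divided. Libraries were grouped by the labels, 3 per group.

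Names and coordinates came from Ensembl release 115, which matched 13777 gene IDs directly and 194 more by transcript. *PPO1* matched by transcript. In all, 256 genes share their 12 values with another gene, 0 of the 9 among them. Depth was estimated from 540 to 683 single-transcript genes per library, of whose low values 87.0 to 93.0% lay within 0.2 of a whole read, where chance gives 40%.

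Genes with at least 3 libraries of a fit at 1 FPKM or more were tested on log2(FPKM + 1), a scale that understates changes of low genes, with limma 3.58.1 (trend, robust) in R 4.3.3, two-sided, Benjamini-Hochberg adjusted over all genes tested, and called under 0.05. Each contrast used the 6 libraries of its groups, and the difference between stages used all 12. Steps were tested on simulated data: the larval fit, of 4807 genes, recovered 96 of 106 genes changed 2-fold and 94 of 94 changed 4-fold. The adult fit, of 5131 genes, recovered 86 of 101 and 98 of 99, and the fit of the difference, of 4948 genes, 47 of 98 and 96 of 102. Unchanged genes made up 5.9%, 1.6% and 7.7% of the calls. The stage fit of the sensitive strain recovered 99 of 118 and 82 of 82, with 4.2% unchanged genes among the calls. For the resistant strain these values were 91 of 106, 94 of 94 and 8.9%. The simulation had a fixed spread, 200 changed genes and no shift of the median gene, unlike the larval data, so recovery under such a shift was not tested.

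The members and lists were chosen with earlier results of these data known. The text names the 9 genes, list genes among the 3 largest called changes per direction and stage, *Hayan*, *Sp7* and *Nplp2*, chosen after their values were seen, and the 3 genes with the highest r. Alternatives were median-of-ratios and upper-quartile scaling, other filters, a pseudocount of 0.1, a threshold of 0.01, a replicate block, 1 fit of all libraries and each library left out. Tables were handled with pandas 2.3.3 and plots drawn with matplotlib 3.10.9.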

Additional observations from a re-analysis of the deposited data

Results flagged for a closer look

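The strain effect on *crq* differed between larvae and adults by the limma interaction test over all 12 libraries: the adult effect minus the larval effect was -1.67 on the log2(FPKM + 1) scale (adjusted p = 0.00245). Both strain effects and every library's value are given above, and the difference held at -1.83 to -1.49 with any library left out. The overlapping gene *ex* also rose in larvae, and its part in the value was not tested.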

How the results depend on the processing

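The 4 calls of *PPO1* and *PPO2* between strains held under every alternative run, as did the larval call of *crq* and its difference between stages. The number of the 9 genes called was 4 in larvae and 2 in adults with any library left out, 1 for the difference between stages, and 6 to 8 for each stage comparison. The stage counts include *eater* and, where tested, *PPO3*, which entered through the stage in which they were higher. Over all genes, the same fits called 6396 to 7685 between stages in the sensitive and 4201 to 6422 in the resistant strain. It moved to 2 for the difference between stages under median-of-ratios scaling and under upper-quartile scaling, with *PPO2* added. With a mean of at least 5 FPKM required, 4 genes in the sensitive and 5 in the resistant strain were tested between stages, and all of them were called. Over all genes under that filter, 6073 of 8353 were called in the sensitive and 4745 of 9242 in the resistant strain. In resistant adults the means of *PPO1* and *NimC1* were 2.87 and 3.03 FPKM, so both passed that filter through the larvae. The log2 ratio of *PPO1* plus *PPO2* to the plasmatocyte genes, with 1 FPKM added to each sum, was 1.16 and -2.14 in larvae of the sensitive and the resistant strain and -0.26 and -2.42 in adults, and 1.78, -0.75, 1.40 and -0.88 in the same order without *crq*, an alternative added after the data were seen.

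Signs turned only for differences that were not called. Under median-of-ratios and upper-quartile scaling, larval *eater* turned to -0.29 and -0.13, and the difference between stages to 0.25 and 0.17 for *Hml* and to 0.30 and 0.18 for *eater*. With a pseudocount of 0.1 that of *PPO1* turned to -0.10. With a library left out, larval *Hml* ranged from -0.45 to 0.007, larval *eater* from -0.12 to 0.50 and adult *Pxn* from -0.25 to 0.17, and the difference between stages from -0.077 to 0.42 for *PPO1*, from -0.12 to 0.088 for *PPO3*, from -0.42 to 0.034 for *Hml* and from -0.48 to 0.15 for *eater*. The cause of these turns was not tested.

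Over all genes, calls in larvae were 6484, but 3342 and 4068 after the scalings and 4138 at a threshold of 0.01. In adults they were 2309, but 600 at 0.01 and 1225, 951 and 497 without sensitive replicate 2, sensitive replicate 3 and resistant replicate 1. For the difference between stages they were 3640, but 1318 at 0.01 and 2117, 2315 and 2389 without larval sensitive replicate 3, larval resistant replicate 1 and adult resistant replicate 1. Same-numbered libraries had an r of -0.262 to 0.202 over the 4 comparisons. Outside these, r was 0.525, 0.292 and 0.184 for replicates 1, 2 and 3 of resistant larvae and sensitive adults. It was -0.184, 0.061 and -0.12 for those of sensitive larvae and resistant adults. Such values cannot show whether the numbers pair samples, since the labels do not say how replicates were made. With the replicate block, 4 genes were called in larvae, 2 in adults and 1 for the difference. Between stages, of the 6 genes at 1 FPKM or more in every library, 5 were called in the sensitive and 6 in the resistant strain. *Hml* was lost in the sensitive strain (limma adjusted p = 0.0810). Over all genes, the block gave calls for 6102 of 11055 in larvae, 2438 of 11612 in adults and 3796 of 12270 for the difference. Between stages it gave 7834 of 11644 in the sensitive and 6296 of 12013 in the resistant strain. For *lz*, *PPO3* and adult *eater*, all low, differences within their spread were not detectable, and the part that depth has in this was not tested.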
